A study of Mus musculus with 6 samples.

Results

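The 33 genes described here encode the enzymes of glycolysis and of the pentose phosphate path, the PFKFB enzymes that set the pace of glycolysis, and carriers of glucose and lactate. They were chosen by name, with earlier results of these data known, and all 33 were found among the 21883 protein-coding genes of the RefSeq annotation. For each gene, the regions bound by ESRRB with a summit (the point of highest signal) within 10 kb of its span were counted. ESRRB binding was mapped by ChIP-seq, in which DNA pulled down with an antibody is sequenced, in E14 cells, an established line of mouse embryonic stem cells. The line was grown in N2B27 medium with 2iL, which is CHIR99021 at 3 µM, which blocks the kinase GSK3, PD0325901 at 1 µM, which blocks MEK signalling, and LIF, a cytokine. A first group was kept in 2iL, and the other groups were collected 48 h and 96 h after 2iL was taken away, in N2B27 alone. Each group had 1 library made with a monoclonal antibody to ESRRB and 1 input library, and the 3 input libraries were not used here. The peak lists hold no expression values, so the labelled cell state was not checked against marker genes. With 1 library per condition no difference between conditions could be tested, and intervals below are exact 95% Clopper-Pearson intervals that cover counting error only.

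Glycolysis splits glucose into pyruvate, which cells either pass to the mitochondria or turn into lactate and export. The pentose phosphate path branches off after the first step and makes NADPH and ribose for nucleotides. Embryonic stem cells are known for a high flux through glycolysis, and naive cells are known to use both glycolysis and respiration. ESRRB is an orphan nuclear receptor of the naive pluripotency network, and its subfamily, the estrogen-related receptors, is known for binding near genes of energy metabolism. It binds as a monomer to an extended hexamer, TNAAGGTCA.

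ESRRB regions lay within 10 kb of most of these genes in each library. In 2iL 22 of 33 genes had at least 1 region (66.7%, 95% interval 48.2 to 82.0), against 31.9% of all protein-coding genes. At 48 h the count was again 22 of 33, against 27.2%, and at 96 h it was 18 of 33 (54.5%, 36.4 to 71.9), against 20.2%. The median span of the genes was 19398 bp, and that of all protein-coding genes 17170 bp. A region was called in all 3 libraries at 14 genes (42.4%), against 15.4% of protein-coding genes, and in at least 1 library at 27 (81.8%), against 39.0%. With a window of 50 kb, 26, 25 and 23 genes had a region, against 56.0%, 49.9% and 39.6% of protein-coding genes.

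**Figure D1:**
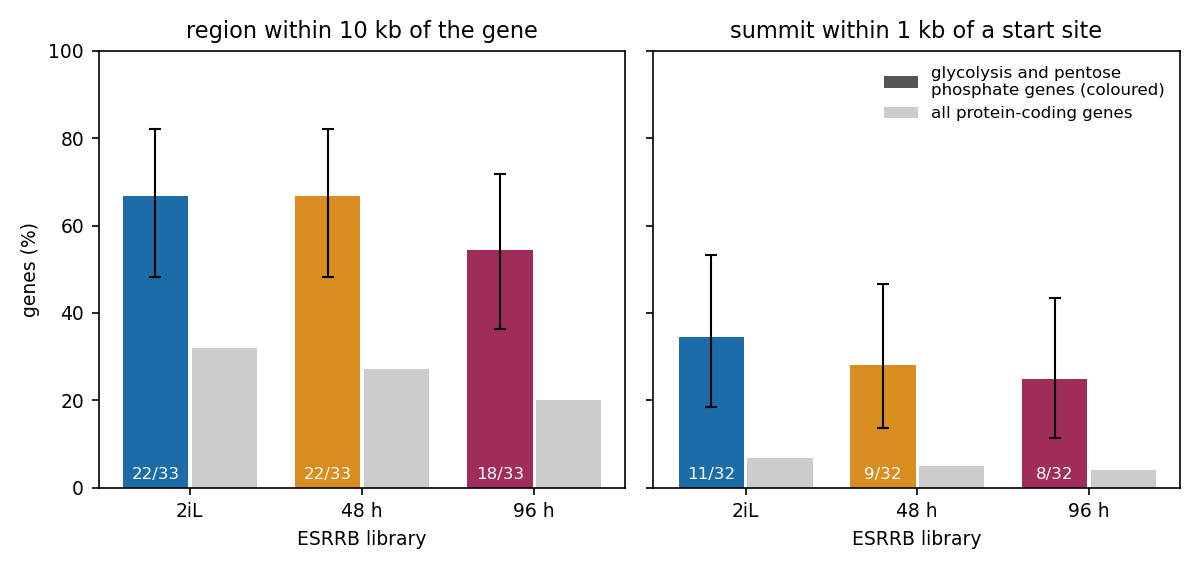
Share of genes (%, y axis) with an ESRRB region within 10 kb of the gene span (left) and with a summit within 1 kb of a listed start site (right) in each of the 3 libraries. On the right only the highest summit of each region counts. Coloured bars are the glycolysis and pentose phosphate genes with exact 95% intervals, grey bars are all protein-coding genes. The coloured bars stand at 66.7%, 66.7% and 54.5% on the left, above grey bars at 31.9%, 27.2% and 20.2%.

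Fold enrichment, the deposited ratio of reads at a summit to the local background, was used to rank regions within a library. The sources used here do not say whether that background came from the ESRRB library or its input. Folds of different libraries are set side by side below, each over the background of its own list. The 2iL list held 13767 regions, the 48 h list 10970 and the 96 h list 7018. The lowest background level behind the folds was highest at 48 h (1.60 times the 2iL level) and stood at 1.16 times that level at 96 h. Near the 33 genes lay 47 of the 2iL regions, 38 of those at 48 h and 32 of those at 96 h, and no region was near more than 1 of them. Their median fold was 6.45, 5.08 and 4.96, beside 5.88, 4.98 and 4.82 over all regions. Reads at their summits ranged from 28 to 296 (2iL), from 37 to 417 (48 h) and from 13 to 317 (96 h). When each list was divided by fold into 5 groups of equal size, the strongest group held 16 of the 47 regions of 2iL, 13 of 38 at 48 h and 9 of 32 at 96 h. The weakest group held 9, 7 and 9 of them, so at 96 h the strongest and the weakest group held as many.

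**Figure D2:**
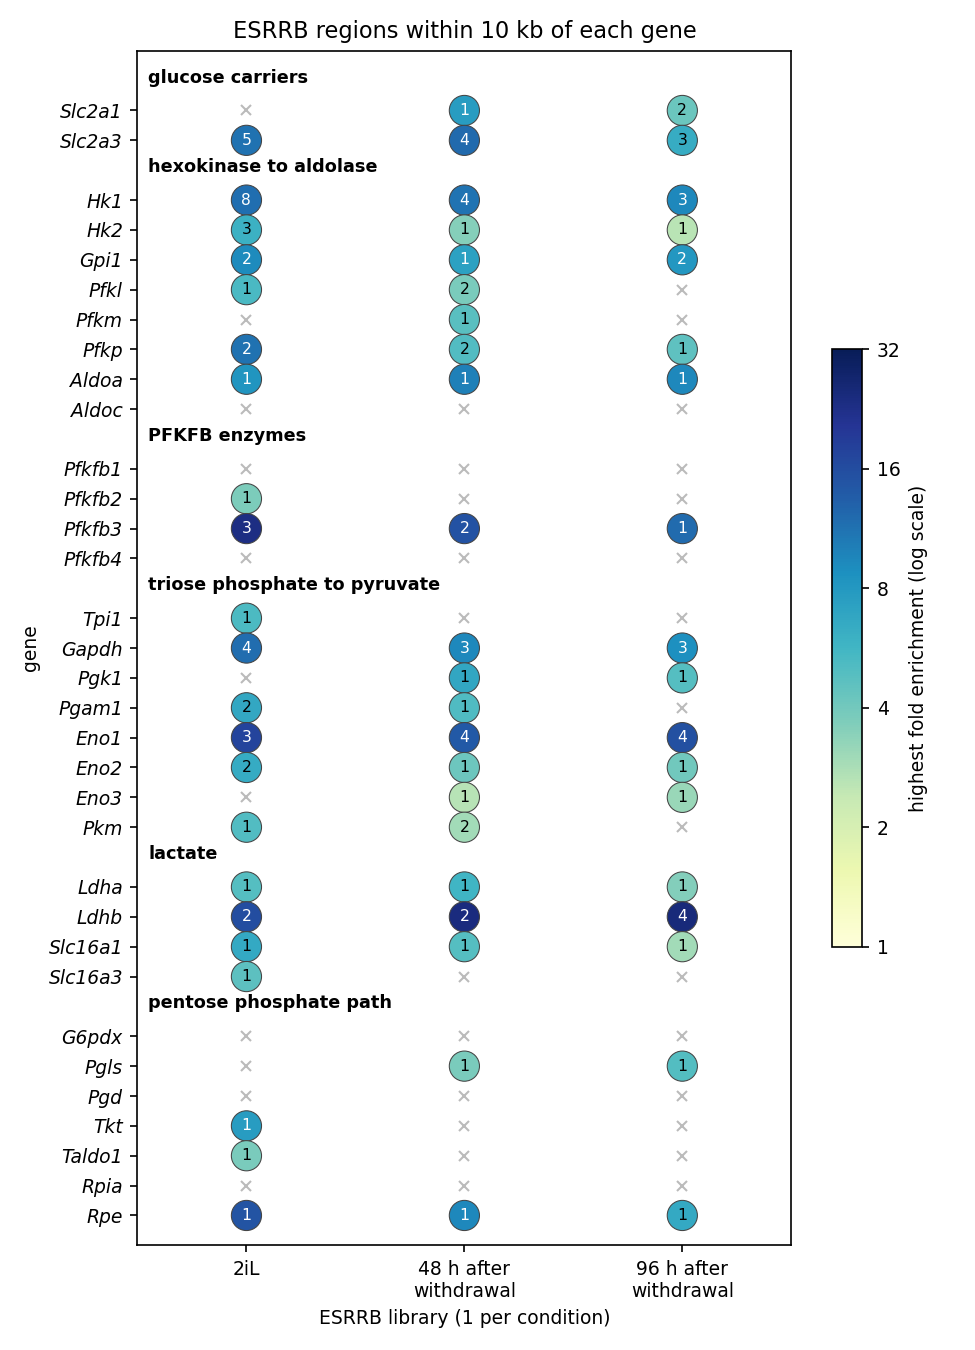
Each of the 33 genes (rows, grouped by role) in the 3 ESRRB libraries (columns). The number in a circle is the count of regions within 10 kb, the colour is the highest fold enrichment among them on a log scale, and a grey cross means that no region was called. Ldhb, Eno1 and Pfkfb3 are the darkest rows, and Aldoc, Pfkfb1, Pfkfb4, G6pdx, Pgd and Rpia hold crosses only.

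At 4 of the genes a summit fell inside the promoter window of the RefSeq table (build GRCm38.p6, which is mm10), from 250 bases before a start site to 50 after it. The bases before the start site are printed for these 4, because here the data mark a position within the promoter itself. Sequences run 5′ to 3′ on the strand of the gene, and capitals mark the hexamer AGGTCA or its complement, with the preceding A where it is part of AAGGTCA. The windows are chr4:150236458-150236707 (plus strand) for Eno1, chr6:142507958-142508207 (minus) for Ldhb, chr7:34230337-34230586 (minus) for Gpi1 and chr9:59656326-59656575 (plus) for Pkm.
Eno1: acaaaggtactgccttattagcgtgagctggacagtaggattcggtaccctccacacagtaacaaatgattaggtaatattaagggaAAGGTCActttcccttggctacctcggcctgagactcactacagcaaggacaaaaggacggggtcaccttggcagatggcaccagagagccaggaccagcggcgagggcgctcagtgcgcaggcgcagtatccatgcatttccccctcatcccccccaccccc
Ldhb: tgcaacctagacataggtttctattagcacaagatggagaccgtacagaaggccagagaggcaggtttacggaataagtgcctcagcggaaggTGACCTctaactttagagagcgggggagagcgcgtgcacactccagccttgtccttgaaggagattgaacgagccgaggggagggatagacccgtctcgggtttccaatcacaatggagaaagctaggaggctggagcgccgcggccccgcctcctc
Gpi1: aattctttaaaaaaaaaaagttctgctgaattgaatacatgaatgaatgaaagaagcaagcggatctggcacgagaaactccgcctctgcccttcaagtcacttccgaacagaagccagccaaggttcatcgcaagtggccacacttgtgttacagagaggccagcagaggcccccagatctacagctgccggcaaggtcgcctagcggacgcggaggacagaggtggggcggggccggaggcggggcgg
Pkm: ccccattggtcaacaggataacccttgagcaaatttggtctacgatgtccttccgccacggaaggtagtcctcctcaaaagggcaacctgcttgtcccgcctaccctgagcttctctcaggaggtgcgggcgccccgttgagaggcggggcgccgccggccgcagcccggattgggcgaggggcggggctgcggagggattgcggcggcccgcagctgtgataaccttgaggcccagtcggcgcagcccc

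In the Ldhb promoter the hexamer lies on the reverse strand, and its centre is 6 bp from the summit in 2iL and at 48 h and 13 bp from it at 96 h. The Eno1 match, AAGGTCA on the strand of the gene, begins 163 bp before the start site, and its centre is 149, 156 and 160 bp from the 3 summits. The Gpi1 and Pkm windows printed hold no match to the hexamer. Over both strands, TNAAGGTCA is in 1 of the 50 promoter windows that the table gives for 32 of the genes, against 1.03% of windows of protein-coding genes. That match, TGAAGGTCA, begins 8 bp after the start site of Tpi1 on the reverse strand, 159 bp from a 2iL summit. AAGGTCA, which is part of TNAAGGTCA, is in 3 of the 50 (Eno1, Tpi1 and Pfkfb1), against 4.08%. AGGTCA, part of both, is in 9 of 50, against 14.7%. Among windows of protein-coding genes, AAGGTCA is in 24.3% of the 428 that hold a summit in any library and in 3.66% of those that hold none.

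Glucose enters through the carriers of the Slc2a family, and both listed carriers had ESRRB regions after withdrawal. Slc2a1, the main carrier of many dividing cells, had none within 10 kb before withdrawal, then 1 and 2. The 48 h region (chromosome 4, 119115629 to 119116995), inside the gene and 7295 bp after its start site, had a fold of 7.70 with 95 reads at the summit and ranked 2091 of 10970. The 96 h library had a region there with a fold of 4.14 and 47 reads. Its other region (119118669 to 119119771), 10236 bp after the start site, had a fold of 4.21 and 45 reads. Within 50 kb Slc2a1 had 3 regions in each library. Slc2a3, a high-affinity carrier gene, had 5 regions before withdrawal, then 4 and 3. Its strongest in 2iL (chromosome 6, 122764212 to 122767304) had folds of 11.4, 6.96 and 5.21 in the 3 libraries, with 158, 110 and 55 reads. The neighbouring region at 122769851 to 122771125 had folds of 10.2, 12.2 and 6.37, with 154, 163 and 56 reads. The order by fold differed after withdrawal, but the reads of these neighbours were near equal in 2iL and at 96 h. That change of order was not tested. Both regions lie inside the Slc2a3 span. Slc2a3 has no listed start site, so distances to its start are unknown and it is left out of the start-site and motif counts. The nearest other coding gene was Nanog, 51912 bp from the first 2iL summit, and Foxj2, 49634 bp from the second. Of the other 3 regions, that at 122761741 to 122763282 was called in all 3 libraries (folds 4.77, 4.83 and 2.82), that at 122742234 to 122743065 was not called at 96 h (5.33 and 3.95), and that at 122810117 to 122810964 was called in 2iL alone (6.22).

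From hexokinase to aldolase, 6, 7 and 5 of 8 genes had a region in the 3 libraries (75.0%, 87.5% and 62.5%), beside 31.9%, 27.2% and 20.2% of protein-coding genes. Hk1, which encodes the housekeeping hexokinase that traps glucose in the cell, had 8 regions before withdrawal, the most of the 33 genes in that library, and 4 and then 3 after it. The span of Hk1, 111066 bp, is also the longest of the 33. Of the 8, 7 lie inside the gene. The strongest (chromosome 10, 62287115 to 62288621) lies 52763 bp after the nearest listed start site and had folds of 11.6, 11.2 and 9.35 with 111, 134 and 63 reads, in the strongest of the 5 groups of each list. The region at 62329789 to 62330396 had folds of 11.3, 4.77 and 4.88 with 72, 64 and 37 reads. The region at 62338093 to 62339431, 1571 bp after a start site, had folds of 11.0, 5.23 and 7.13 with 95, 123 and 59 reads. These 3 regions had like folds in 2iL, and the first had the highest fold at both later times. The region at 62310289 to 62311721 (fold 9.46 in 2iL and 7.84 at 48 h) was not called at 96 h. The weaker 2iL regions inside the gene had folds of 7.28, 3.99 and 3.79, and 1 of them (3.79) was overlapped by a 48 h region. The region 5867 bp outside Hk1 (62385307 to 62385978), with a fold of 4.51 in 2iL alone, lies inside the neighbouring gene Hkdc1. Hk2, the inducible hexokinase gene, had 3, 1 and 1 regions. The 2iL regions on chromosome 6 at 82723180 to 82724226, 82758064 to 82758859 and 82772739 to 82773698 had folds of 5.60, 5.99 and 3.98. None of them was called at 48 h, and the 48 h region (82760514 to 82761194, fold 3.54 with 40 reads) lay elsewhere in the gene. The first of them was called at 96 h with a fold of 2.60 and 36 reads.

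Gpi1 encodes the isomerase of the second step of glycolysis. Its promoter region (chromosome 7, 34229874 to 34230811 in 2iL) had folds of 9.11, 7.25 and 8.10 with 126, 166 and 168 reads, and summits 34, 40 and 6 bp before the start site. Another 2iL region inside the gene (34218215 to 34218937, fold 6.96 with 66 reads) was called at neither later time. A narrow 96 h region beside the promoter (34231024 to 34231261) had a fold of 1.58, 13 reads at the summit and a deposited −log10 q of 0.

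The 3 phosphofructokinase genes, whose products catalyse the committed step, differed in where regions were called. Pfkp had regions at folds of 11.4 and 9.77 in 2iL. The stronger (chromosome 13, 6642379 to 6643947, 109 reads) was called at neither later time. The other (6646763 to 6648127, 87 reads), 1373 bp after the start site, had folds of 4.85 and 4.56 later, and a 48 h region elsewhere in the gene (6625448 to 6626910) had a fold of 5.04. Pfkl had 1, 2 and 0 regions, all outside the gene on chromosome 10. The one at 78018750 to 78019203 had folds of 5.33 in 2iL (47 reads) and 3.78 at 48 h (94 reads), and the other (78012746 to 78013527, 44 reads) a fold of 3.58. Pfkm had 1 region, at 48 h (chromosome 15, 98114204 to 98115162), with a fold of 4.77 and 79 reads.

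Aldoa, the aldolase gene active in most tissues, had 1 region in each library (chromosome 7, 126797544 to 126799324 in 2iL), with folds of 8.31, 10.0 and 9.46 and 79, 172 and 92 reads. Its summits lay 835, 827 and 851 bp after the nearest listed start site. In rank by fold the region stood at 3127 of 13767, then at 1016 of 10970 and 719 of 7018. Aldoc, the aldolase gene of brain, had no region in any library.

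The PFKFB enzymes make and remove the sugar bisphosphate that activates phosphofructokinase. Pfkfb3, whose product strongly favours making it, held the strongest region of the whole gene set in 2iL (chromosome 2, 11544674 to 11547526). That region lies inside the gene, 6870 bp after a start site, and had folds of 23.2, 15.1 and 12.0 with 147, 136 and 81 reads at the summit. It ranked 49 of 13767, 222 of 10970 and 375 of 7018. So it stayed among the strongest regions of each list. A region 8880 bp outside Pfkfb3 (11562316 to 11564221) had folds of 6.45 in 2iL and 5.05 at 48 h and was not called at 96 h. Another (11540286 to 11540676, fold 4.63 with 28 reads) was called in 2iL alone. Pfkfb2 had 1 region, in 2iL (chromosome 1, 130710349 to 130710987), with a fold of 3.74 and 35 reads. Pfkfb1 and Pfkfb4 had none within 10 kb or 50 kb in any library.

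From triose phosphate to pyruvate, again 6, 7 and 5 of 8 genes had a region, beside the same 31.9%, 27.2% and 20.2% of protein-coding genes. At Eno1, the enolase gene of most cells, the promoter region (chromosome 4, 150235977 to 150237703 in 2iL) had folds of 17.5, 14.1 and 15.6 with 296, 410 and 317 reads at the summit. Its summits lay 11 bp before, 4 bp before and at the start site, in the promoter printed above. It ranked 226, 278 and 151 in the 3 lists. Beyond the other end of Eno1, 3014 bp outside the span, a region (150251507 to 150252397) had a fold of 3.53 with 46 reads in 2iL, where it ranked 12995 of 13767. At 48 h the fold there was 10.2 with 196 reads (rank 958 of 10970), and at 96 h it was 8.59 with 97 reads (rank 943 of 7018). The same place was thus in the weakest of the 5 groups of the 2iL list and in the strongest of both later lists. A region inside the gene (150246441 to 150247582) had folds of 6.02, 4.34 and 3.54. Regions at 48 h alone (fold 3.14) and at 96 h alone (4.27) were also called. Eno2, the neuronal enolase gene, had 2, 1 and 1 regions, and the one called in all libraries (chromosome 6, 124753641 to 124755236, folds 6.46, 4.15 and 4.06 with 93, 59 and 38 reads) lies inside the next gene, Atn1. The other (124758800 to 124759735) had a fold of 3.72. Eno3, the muscle enolase gene, had 1 region at each later time (chromosome 11, 70646485 to 70647043 at 48 h), with folds of 2.64 and 3.16 and 98 and 65 reads. It lies inside Slc25a11, and its summits were 165 and 144 bp from a start site of that gene.

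Gapdh, the gene of the oxidising step, had 4, 3 and 3 regions. The region over its start (chromosome 6, 125164675 to 125166886 in 2iL) had folds of 9.14, 8.66 and 8.84 with 132, 193 and 136 reads, and summits 579, 584 and 518 bp after the start site. Its fold was thus much the same in the 3 libraries. The stronger 2iL region (125171454 to 125173103), 6807 bp before the start site and inside the neighbouring gene Ncapd2, had folds of 11.8, 9.38 and 6.40 with 156, 144 and 69 reads. A region at the far end of Gapdh (125160115 to 125164508), with its highest 2iL summit inside the next gene, Iffo1, had folds of 6.41, 3.63 and 2.40. A weak 2iL region beside the Ncapd2 one (fold 4.05) was overlapped by the 48 h region there. Pgk1, whose enzyme makes the first ATP of the lower path, had no region in 2iL. At 48 h (chromosome X, 106187196 to 106187941) a region 573 bp after its start site had a fold of 6.82 with 61 reads, and at 96 h the fold was 4.92 with 43 reads. Tpi1, the triose phosphate isomerase gene, had 1 region 171 bp after its start site, in 2iL alone (chromosome 6, 124813665 to 124814641, fold 5.22 with 46 reads). Pgam1, a mutase gene, had 2 regions in 2iL, at chromosome 19, 41914930 to 41916569 (fold 6.70 with 45 reads) and 41911978 to 41912926 (3.89 with 46 reads). The first was called at 48 h (5.11), and neither was called at 96 h. Pkm, which encodes pyruvate kinase, had a promoter region (chromosome 9, 59656227 to 59657747) with folds of 5.02 in 2iL (72 reads) and 2.99 at 48 h (103 reads). It was not called at 96 h, and a weak region inside the gene was called at 48 h alone (59675123 to 59675635, fold 2.83).

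Lactate dehydrogenase interconverts pyruvate and lactate, and Ldhb, the gene of the heart-type subunit, held the strongest regions of the set after withdrawal. The upstream region (chromosome 6, 142509369 to 142512162 in 2iL), with its summit 3698 bp before the start site, had folds of 15.5, 24.2 and 24.9 in the 3 libraries. The reads at its summit were 148, 417 and 255. It ranked 376 of 13767 before withdrawal, then 22 of 10970 and 21 of 7018. Its summit moved by 10 bp from 2iL to 48 h and by 13 bp from 2iL to 96 h. The promoter region of Ldhb (142506308 to 142509128 in 2iL) had folds of 15.9, 11.8 and 17.7, with summits 160, 160 and 141 bp before the start site, and ranked 339, 575 and 83. Of these neighbours the promoter region was at about the same fold as the upstream one in 2iL and at a lower fold in both later libraries. The 96 h library had 2 further regions beside these (142512642 to 142513562 and 142509387 to 142510256), at folds of 5.22 and 3.46. Both overlapped the wider upstream region of the 48 h list (142509650 to 142513804), and the second lies inside the 2iL upstream region. The higher count at 96 h thus came from places that an earlier list held within a single region. The nearest other protein-coding gene, Gys2, was 34968 bp or more from these summits.

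**Figure D3:**
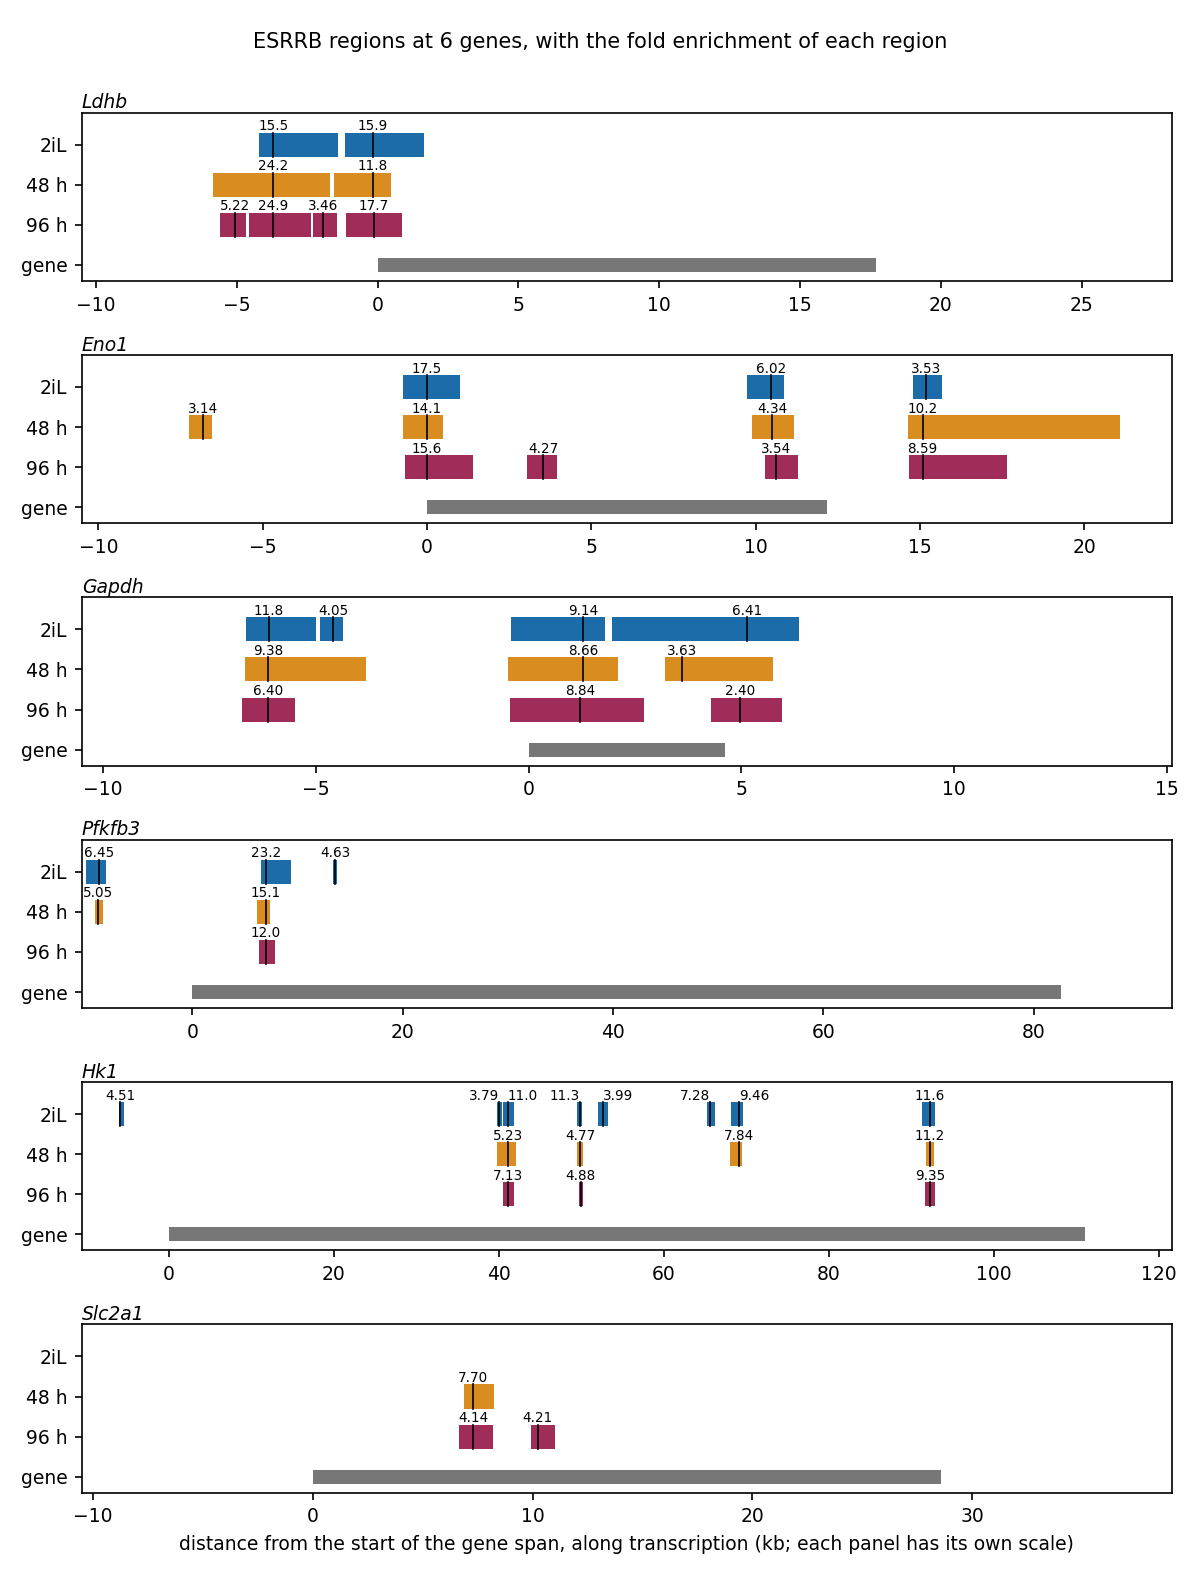
ESRRB regions within 10 kb of 6 genes in the 3 libraries (rows of coloured bars) along the distance from the start of the gene span in kb, on a scale of its own for each gene. Black ticks are the highest summits, numbers are fold enrichments and grey bars are gene spans. The upstream Ldhb summit stands at the same place at folds of 15.5, 24.2 and 24.9, and Slc2a1 has bars at 48 h and 96 h only.

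Ldha, the gene of the muscle-type subunit, had 1 region in each library, 2587 bp outside its span in 2iL (chromosome 7, 46839246 to 46840257), with folds of 4.88, 5.73 and 3.59 and 47, 78 and 34 reads. Slc16a1, a gene for a carrier of lactate and pyruvate, had 1 region at its start in each library (chromosome 3, 104638171 to 104639456 in 2iL). Its folds were 6.63, 4.94 and 2.96 with 71, 141 and 50 reads, and it ranked 5325 of 13767, 5603 of 10970 and 6536 of 7018. At 96 h it was in the weakest of the 5 groups of the list. Slc16a3, a lactate exporter gene of glycolytic cells, had a region in 2iL alone (chromosome 11, 120964409 to 120964920, fold 4.66 with 30 reads), inside the neighbouring gene Csnk1d.

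Of the 7 genes of the pentose phosphate path, 3 had a region before withdrawal and 2 had one at each time after it (42.9%, 28.6% and 28.6%). These shares were near the 31.9%, 27.2% and 20.2% of protein-coding genes, all of which lie inside their intervals (9.90 to 81.6 in 2iL and 3.67 to 71.0 later). Rpe, the epimerase gene, had the only region of the path that was called in all 3 libraries (chromosome 1, 66699776 to 66700593 in 2iL). Its summit lay 708 bp before the start site, and its folds were 14.8, 9.35 and 6.65 with 132, 103 and 78 reads, at ranks of 468, 1258 and 1749. The span of Unc80 was 973 bp from that summit. Tkt, the transketolase gene, had 1 region in 2iL alone, 5437 bp outside the gene (chromosome 14, 30579882 to 30580412, fold 7.67 with 51 reads). Taldo1, the transaldolase gene, had 1 inside the gene, in 2iL alone (chromosome 7, 141401200 to 141402049, fold 3.78 with 47 reads). Pgls, a gene of the oxidative branch, had 1 region at each later time, with folds of 3.78 and 5.0 and 86 and 57 reads, inside Slc27a1 (chromosome 8, 71584128 to 71585013 at 48 h). No region was called within 10 kb of G6pdx and Pgd, which encode the 2 dehydrogenases that make NADPH, or of Rpia. Within 50 kb, G6pdx and Pgd still had none and Rpia had 1, at 96 h.

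Most of the 47 regions found before withdrawal were called again later, 30 of them at 48 h (63.8%, 95% interval 48.5 to 77.3), against 50.7% of all 2iL regions. At 96 h it was 23 of 47 (48.9%, 34.1 to 63.9), against 35.0%. Taking each region at the share of its own group of the 5 by 2iL fold gives 54.2% and 38.9%. These values and those over all 2iL regions lie inside the intervals. The intervals take the regions as independent, though 8 of the 47 lie at Hk1 and some of the 47 overlap the same later region. They may therefore be too narrow. Called at both later times were 22 of 47 (46.8%, 32.1 to 61.9), against 31.3%, and at neither 16 (34.0%, 20.9 to 49.3), against 45.6%. The 22 had a median 2iL fold of 9.98, from 3.53 to 23.2, and the 16 a median of 4.64, from 3.72 to 11.4. When overlap of at least 50% of both regions was asked for, 46.8% were called at 48 h and 36.2% at 96 h, against 44.1% and 29.0% of all 2iL regions.

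**Figure D4:**
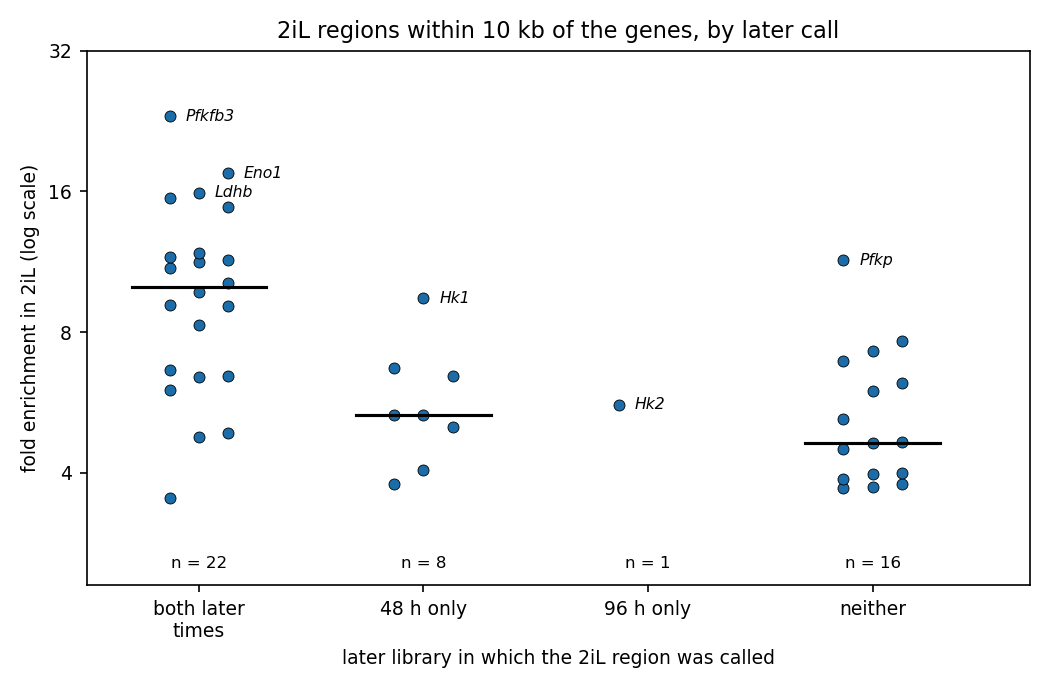
Fold enrichment in 2iL (y axis, log scale) of the 47 regions of 2iL within 10 kb of the genes, split by the later library in which they were called. Each point is a region, black lines are medians, and the strongest regions carry the name of their gene. The 22 regions called at both later times reach 23.2, and the Pfkp region of fold 11.4 is the strongest of the 16 called at neither.

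Of the 22 genes with a 2iL region, 13 had fewer regions at 48 h and 15 at 96 h (59.1% and 68.2%), near the 50.9% and 67.1% of all protein-coding genes with a 2iL region. Later regions without a counterpart in 2iL were 10 of 38 at 48 h (26.3%, 95% interval 13.4 to 43.1), against 36.5% of all 48 h regions, and 8 of 32 at 96 h (25.0%, 11.5 to 43.4), against 30.5%. When 50% of both had to overlap, the shares near the genes were 42.1% and 46.9%. Under that rule the shares over all later regions were not computed, and the 36.5% and 30.5% do not serve as their background. Slc2a1, Pgk1, Eno3 and Pgls, with no region in 2iL within 10 kb, had one in the same place at both later times. With lists of equal length (the 7018 strongest regions of each), Eno3 and Pgls had none at 48 h and kept 1 at 96 h. The 10 at 48 h had folds of 2.64 to 7.70.

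The 32 genes with a listed start site had 50 such sites, and 17491 protein-coding genes had 21262, so the 32 had more per gene. Summits lay within 1 kb of a listed start site at 11 of 32 genes in 2iL (34.4%, 95% interval 18.6 to 53.2), against 6.73% of protein-coding genes with a listed start site. At 48 h it was 9 of 32 (28.1%), against 5.07%, and at 96 h 8 of 32 (25.0%), against 4.13%. Gpi1, Aldoa, Gapdh, Eno1, Ldhb, Slc16a1 and Rpe had such a summit in all 3 libraries, and Pgk1 at both later times. Hk1, Tpi1 and Pgam1 had one in 2iL alone and Pkm in 2iL and at 48 h. Only the highest summit of each region was counted here. At Hk1 the 2iL region with that summit was overlapped by a 48 h region of 2 summits (62337850 to 62340120). The highest summit of the 48 h region lay 1603 bp after a start site. Counted by regions at genes with a listed start site, 11 of 42 in 2iL (26.2%), 9 of 34 at 48 h (26.5%) and 9 of 29 at 96 h (31.0%) had the summit within 1 kb. The 95% intervals of these shares were 13.9 to 42.0, 12.9 to 44.4 and 15.3 to 50.8. Over all regions within 10 kb of a protein-coding gene with a listed start site the shares were 15.1%, 14.3% and 17.8%. The latter count a start site of any protein-coding gene, the former only those of the gene itself. The measure over all regions is thus the wider one, and the 2 sets of shares are not directly comparable. The gene span itself held 27 of the 47, 22 of the 38 and 17 of the 32 regions of the respective lists. The same share over all regions near protein-coding genes was not computed. The median distance between the 2iL summit and the later one was 30 bp at 48 h and 33 bp at 96 h, against 27 and 30 bp over all shared regions. The largest distances were 3854 bp at 48 h and 3920 bp at 96 h, from the region at the far end of Gapdh. A 2iL region that overlapped several later ones was paired with the strongest of them.

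The window of 10 kb left few regions near its edge. Just inside were Pfkl regions 9186 bp (2iL, fold 5.33) and 9168 bp (48 h, 3.78) from the gene and a Pfkfb3 region at 8986 bp. Just outside were regions 11353 bp (48 h, fold 3.94) and 11419 bp (2iL, 5.60) from Gapdh.

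Other isozymes and carriers of the same steps, many of them known from single tissues, had a region within 10 kb at 6, 3 and 3 of 20 genes in the 3 libraries (30.0%, 15.0% and 15.0%). Those shares were near or below the background of 31.9%, 27.2% and 20.2%. Slc16a7, another gene for a carrier of lactate and pyruvate, had folds of 10.7, 13.1 and 28.2 in a region inside the gene. H6pd, which encodes a dehydrogenase of the pentose phosphate path in the endoplasmic reticulum, had folds of up to 10.4, 8.01 and 5.73. Ldhd, a gene for a mitochondrial lactate dehydrogenase, had 2 regions in each library with folds of up to 8.11. Genes of pyruvate entry into mitochondria and of glucose sensing had a region at 5, 3 and 3 of 15 genes, near the background in 2iL and at 96 h and below it at 48 h. Within 50 kb 10, 10 and 8 of 15 had one (66.7%, 66.7% and 53.3%), against 56.0%, 49.9% and 39.6% of protein-coding genes. These counts are small, and no difference from the background was tested for these 15 genes. Among them Pdk1, whose kinase switches off pyruvate dehydrogenase, had a region 5494 bp outside the gene with folds of 15.6, 15.5 and 11.5. Pdk4, of the same family, had folds of 5.57, 5.67 and 11.7 in a region 349 bp outside the gene in 2iL, and Mpc1, a subunit of the pyruvate carrier, had folds of 10.3, 7.39 and 5.30.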

How the data were processed

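The members and gene lists were chosen with earlier results of these data known. Reads were processed by the authors with bcl2fastq 2.20.0.422, BWA, SAMtools, Picard and MACS2 on mm10, per the submitters' processing notes. Not given in the sources used here were mapping filters, the calling threshold, the use of inputs and the treatment of reads that match several places, so values at genes with pseudogene copies, such as Gapdh, are uncertain. Each deposited peak list is of 1 library. The authors deposited a score (not used), a fold ratio over local background, p-values and q-values as −log10, and a summit offset. A region is a unique interval, and its fold is that of the strongest summit in it. Reads at summits were solved from fold and p, with a pseudocount of 1. They came out whole within 0.05 in 100% of summits, with medians of 39 (2iL), 55 (48 h) and 38 (96 h).

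A region was near a gene when any of its summits lay within 10 kb of the RefSeq span. Regions were shared when they overlapped by 1 bp. Start sites came from the promoter table, and distances to them were taken from the highest summit of each region. All members are named. Coordinates, folds and reads are given for members with regions, up to 14 by highest fold plus those whose number of regions differs between libraries, and up to 3 genes of each other list are named by fold. Intervals used scipy 1.17.1. Code was tested on simulated data. Alternatives were windows of 2 and 50 kb, q of 1e-05, lists of equal length, nearest gene only, other overlaps and other motif letters, of which AGGTCA was chosen after seeing the data.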

Additional observations from a re-analysis of the deposited data

How the results depend on the processing

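No paired analysis was possible because each condition had 1 library. Over the 5 settings run on them, the genes with a region were 15 to 26 in 2iL, 16 to 25 at 48 h and 14 to 23 at 96 h, of 33. The share of all protein-coding genes moved with the setting too. With a window of 2 kb the counts were 18, 17 and 14, against 23.4%, 19.9% and 14.3% of protein-coding genes. At a q of 1e-05 they were 22, 22 and 17, against 31.7%, 27.1% and 19.2%. With nearest gene only they were 21, 19 and 15, and no share of all genes was computed. With lists of equal length (the 7018 strongest regions each) they were 15, 16 and 18 of 33, against 18.8%, 18.5% and 20.2% of protein-coding genes, with 28 regions near the genes in 2iL, of which 67.9% were called at 96 h (47.8% of all 2iL regions). Within 50 kb lay 81, 60 and 54 regions, because the window is wider. At 50 kb the other isozymes with a region were 11, 10 and 8 of 20 and the genes of pyruvate entry 10, 10 and 8 of 15. The shares of protein-coding genes were 56.0%, 49.9% and 39.6%. At 48 h the share of the pyruvate entry genes lay below background at 10 kb and above it at 50 kb. With 15 genes neither difference was tested. With overlap of at least 50% of both regions, 46.8% of 2iL regions near the genes were called at 48 h, against 44.1% of all 2iL regions. Of the regions near the genes, 42.1% at 48 h and 46.9% at 96 h had no 2iL counterpart. For these the share over all regions was not computed, and the cause of the shift from the 1 bp overlap was not tested. At a q of 1e-05, Hk2 had no region at 96 h and Gpi1 had 1. The motif count in promoters was 3 of 50 windows with AAGGTCA and 9 with AGGTCA, which are shorter. With 1 library each, a region that was not called may hold signal under the threshold.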

Other observations

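Genes of gluconeogenesis and glycogen, which run the path in reverse or store glucose, had a region within 10 kb at 9, 6 and 7 of 14 in the 3 libraries (64.3% in 2iL and 42.9% at 48 h), against 31.9%, 27.2% and 20.2% of protein-coding genes. Pck2, which encodes a mitochondrial enzyme of gluconeogenesis, had folds of 16.5, 15.5 and 6.26 in a region 640 bp outside the gene in 2iL. Pygm, the glycogen phosphorylase gene of muscle, had 2, 4 and 3 regions with folds of up to 9.41, 4.50 and 8.90. Pgm1, whose enzyme links glycogen to glycolysis, had 1 region in each library, with folds of 8.80, 5.75 and 4.50. Pgm2 was chosen after its values were seen, and it had 4 regions in 2iL (highest fold 7.02) and none at either later time.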
